A study of Mus musculus with 35 samples.

Results

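The genes described here are the axon guidance ligands and receptors of the mouse: the semaphorins with their plexin and neuropilin receptors, the ephrins with the Eph receptors, the netrins and netrin-G proteins with the DCC and UNC5 receptors, and the Slits with the Robo receptors. They were chosen by symbol alone, and 73 entries with 71 symbols matched among 39017 gene entries. Of these, 39 are ligands and 34 are receptors. Efna5 and Ntng1 each have 2 entries in the annotation, and they are given with their Ensembl identifiers where it matters.

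RNA was sequenced from the striatum of 35 mice aged 21.7 to 23.0 weeks, with 1 library per mouse and 4 groups. Htt+/+ Hdac2 WT had 8 mice (5 males and 3 females) and HttQ111/+ Hdac2 WT had 7 (4 males and 3 females). Htt+/+ Hdac2 KO had 9 (5 males and 4 females) and HttQ111/+ Hdac2 KO had 11 (8 males and 3 females). HttQ111/+ mice carry 1 knock-in Htt allele with an expanded CAG repeat, here of 110 to 144 repeats, which models the Huntington disease mutation. Hdac2 KO mice, written Hdac2D/D in the sample titles, carry 2 floxed Hdac2 alleles and D9-Cre, a transgene in which Ppp1r1b regulatory sequence drives Cre in the medium-spiny neurons (MSNs) of young adult mice, so that other cells of the striatum keep Hdac2. No Hdac2 WT mouse used here carried Cre, so the deletion and the transgene cannot be told apart, and all mice were of a mixed C57BL/6 and 129 background.

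Guidance molecules steer growing axons and later shape synapses. Most semaphorins signal through plexins, and the secreted class often needs a neuropilin as co-receptor, whereas Sema3e binds Plxnd1 directly. Ephrins and Eph receptors are both held in the membrane and signal in both directions between touching cells. Netrin-1 attracts through DCC and repels through UNC5 receptors, and the Slits repel through Robo receptors. In the striatum Sema3e and Plxnd1 are known for setting which thalamic inputs reach direct-pathway MSNs. HDAC2 removes acetyl groups from histones as part of corepressor complexes.

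The gene totals ran from 50970712 to 77867348 counts per library (median 57322618), and the guidance genes took 0.268% to 0.323% of them. Hdac2, counted over its whole gene in all cell types, had a median of 104 CPM (counts scaled to the library total) in Htt+/+ Hdac2 WT and 94.4 in Htt+/+ Hdac2 KO (log2 fold change -0.09 ± 0.03 SE, adjusted p = 0.0552), and 105 against 95.5 in HttQ111/+ mice (-0.12 ± 0.03, adjusted p = 0.0020). The study reports that Cre removes only some of its exons, that transcripts joining the flanking exons remain, and that MSNs lose HDAC2 protein. Summed CPM of 9 MSN markers were 7885 to 9057 in Htt+/+ Hdac2 WT, 7452 to 8786 in Htt+/+ Hdac2 KO, 5716 to 7800 in HttQ111/+ Hdac2 WT and 6433 to 8160 in HttQ111/+ Hdac2 KO. In bulk tissue, fewer cells of a type and less RNA per cell cannot be told apart. Summed CPM of the cortical projection neuron markers were 45.3 to 125 in 32 libraries and stood apart at 487 in HttQ111/+ Hdac2 WT replicate 7, 228 in Htt+/+ Hdac2 KO replicate 6 and 179 in Htt+/+ Hdac2 KO replicate 2. Choroid plexus markers were highest in Htt+/+ Hdac2 WT replicate 1 (210) and HttQ111/+ Hdac2 KO replicate 1 (145). RNA was extracted on 6 dates, and the Hdac2 WT libraries came from 24, 25 and 27 May while all but 2 of the Hdac2 KO libraries came from 26 May, 31 May and 3 June.

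The promoters of 4 members that the Hdac2 comparison turns on are shown first, so that their base composition can be read beside the values. Each is the window from 250 bases before to 50 after a RefSeq start on GRCm38.p6, and capitals mark the GC box GGGCGG or its complement CCGCCC on the other strand. Epha10, which rose, is read at chr4:124881535-124881834 on the plus strand and holds 2 GC boxes and 21 CpG. Sema4g, which also rose, is read at chr19:44989094-44989393 on the plus strand and holds 4 GC boxes and 30 CpG. Plxnd1, which fell, is read at chr6:115994956-115995255 on the minus strand and holds 2 GC boxes and 23 CpG. Unc5a, which fell too, is read at chr13:54949161-54949460 on the plus strand and holds 5 GC boxes, 2 of them overlapping, and 37 CpG.
Epha10: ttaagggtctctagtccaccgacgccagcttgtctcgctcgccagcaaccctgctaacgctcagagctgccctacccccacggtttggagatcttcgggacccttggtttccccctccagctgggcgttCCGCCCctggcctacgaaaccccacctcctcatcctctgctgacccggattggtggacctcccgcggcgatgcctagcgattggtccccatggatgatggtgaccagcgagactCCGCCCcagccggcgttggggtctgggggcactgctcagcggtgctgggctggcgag
Sema4g: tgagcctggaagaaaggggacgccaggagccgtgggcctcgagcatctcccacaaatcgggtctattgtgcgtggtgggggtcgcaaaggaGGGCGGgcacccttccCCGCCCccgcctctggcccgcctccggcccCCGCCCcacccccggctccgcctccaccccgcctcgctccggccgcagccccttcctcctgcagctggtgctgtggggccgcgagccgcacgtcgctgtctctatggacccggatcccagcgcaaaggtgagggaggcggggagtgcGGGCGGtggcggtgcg
Plxnd1: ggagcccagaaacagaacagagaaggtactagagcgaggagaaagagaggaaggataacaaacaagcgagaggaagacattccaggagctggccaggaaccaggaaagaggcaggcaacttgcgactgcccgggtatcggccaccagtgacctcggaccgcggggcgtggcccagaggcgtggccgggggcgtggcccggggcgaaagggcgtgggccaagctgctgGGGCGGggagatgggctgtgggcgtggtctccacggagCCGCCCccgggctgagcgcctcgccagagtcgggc
Unc5a: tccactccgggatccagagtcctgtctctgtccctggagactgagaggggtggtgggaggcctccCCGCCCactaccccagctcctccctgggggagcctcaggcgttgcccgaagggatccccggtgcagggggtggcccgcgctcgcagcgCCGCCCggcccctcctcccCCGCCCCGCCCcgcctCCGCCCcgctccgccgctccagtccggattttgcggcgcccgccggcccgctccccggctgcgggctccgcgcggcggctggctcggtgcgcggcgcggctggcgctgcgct

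Promoter windows were held for 61 of the 71 symbols, 77 windows in all. GGGCGG or CCGCCC was in 70.1% of them against 35.7% of all 32851 windows of the same length, the TATA motif TATAAA (either strand) was in 2.60% against 13.6%, and CCAAT (either strand) was in 28.6% against 37.4%. The median window held 19 CpG among the guidance genes and 7 among all windows. Of the members that rose in either Hdac2 comparison below, 13 of 18 windows held a GC box, and of those that fell 13 of 13 did. These matches are a description of the letters in the window and not of sites in use. Slit1, Dcc, Sema6a, Unc5d, Plxna4, Sema3f, Sema3b, Efnb3, Ntn1 and Plxna1 had no entry.

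Levels were compared between genes per kb of exon, a scale that overstates genes with long introns because intronic reads were counted too. The range was wide, from 68.0 CPM per kb for Efnb3 to 0.0406 for Ntn5. Efnb3, a transmembrane ephrin that binds EphB receptors, lay between 59.4 and 85.5 CPM per kb over the 35 libraries and overlapped no other member. Below it came Sema7a, a membrane-anchored semaphorin that binds integrins and Plxnc1 (mean 36.2, libraries 27.1 to 56.3), and Epha4, a receptor for ephrins of both classes (34.2, 28.2 to 41.7). These neighbours in the order overlapped over most of their ranges. Ephb6, an Eph receptor without kinase activity, had a mean of 20.6 and Efna3 one of 19.3, with Plxnd1 (18.7) and Sema6b (18.4) close behind, and these 4 were not separated by their spread either. At the other end, Ntn5, Epha1 and Efna4 had means of 0.0406, 0.0680 and 0.103 CPM per kb. Ntn5 and the short Ntng1 entry ENSMUSG00000050836 passed the count filter in no comparison, and Efna4 did not in 2 of the 4.

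**Figure D1:**
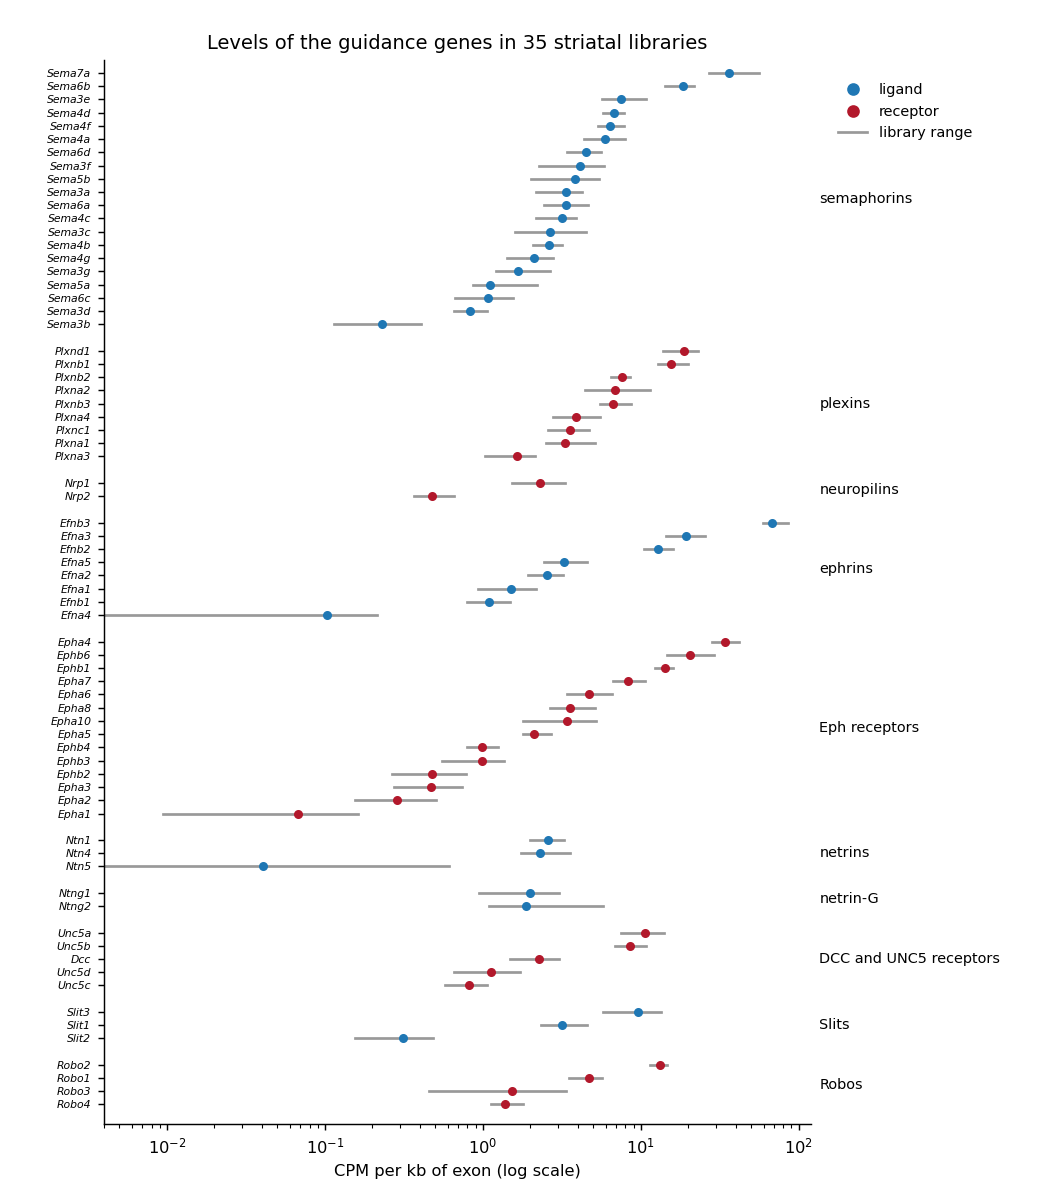
Mean level of 70 guidance gene entries in CPM per kb of exon (log axis), grouped by family, with lines from the lowest to the highest of the 35 libraries (lines that run to the left edge start at 0). Efnb3 was the highest at 68.0 CPM per kb and Ntn5 the lowest at 0.0406. Ntn3, the nested Efna5 entry and the short Ntng1 entry have no exon length here and are not drawn.

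The members also differed in how steady they were among mice of one group. Efnb3, Sema4f, Ephb1 and Robo2 had mean coefficients of variation within groups of 5.45%, 5.67%, 6.02% and 6.37%. Robo3, a divergent Robo receptor known from commissural axons, had one of 47.8% at a mean of 10.6 CPM, and its lowest and highest libraries within Htt+/+ Hdac2 WT were 3.12 and 19.3 CPM. The sum over all members had medians of 3027 CPM in Htt+/+ Hdac2 WT, 2942 in Htt+/+ Hdac2 KO, 3067 in HttQ111/+ Hdac2 WT and 2943 in HttQ111/+ Hdac2 KO, and the 4 ranges overlapped.

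The first question was whether loss of Hdac2 in MSNs changed guidance genes in Htt+/+ mice. Of 70 members tested, 16 rose and 6 fell at an adjusted p under 0.05, which is 31.4% of them against a background of 17.8% of all 17126 genes tested. The ligands gave 10 rises and 2 falls among 36 tested, and the receptors 6 rises and 4 falls among 34. The semaphorins gave 6 rises and 2 falls of 20, the plexins 4 rises and 1 fall of 9, the Eph receptors 2 rises and 2 falls of 14, the ephrins 2 rises of 8, and the Slits 2 rises of 3. Unc5a was the only one of 5 DCC and UNC5 receptors past the threshold, falling, and no netrin (3 tested), netrin-G (2), neuropilin (2) or Robo (4) was past it. Of the 9 MSN markers, 2 rose and 2 fell in this comparison and 2 rose in the one that follows. Changes in both directions left the median log2 fold change of the members at 0.03 and that of all genes at -0.00, and the median size among called members was 0.36 on the log2 scale.

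In HttQ111/+ mice, 11 of 71 members rose and 12 fell on Hdac2 KO, which is 32.4% against a background of 16.5% of 17169 genes. Again the semaphorins were the family with the most calls (6 rises and 3 falls of 20). The Eph receptors gave 1 rise and 4 falls of 14, the plexins 1 rise and 2 falls of 9, the ephrins 2 rises and 1 fall of 9, the DCC and UNC5 receptors 2 falls of 5 and the Slits 1 rise of 3. The receptors thus gave 2 rises and 8 falls here, and the ligands 9 rises and 4 falls. The median of the members was -0.01 and that of all genes -0.00.

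The groups compared share no library between these comparisons. All 35 libraries were in the fit of each, however, and both set Hdac2 genotype largely against extraction date. In all, 16 members passed in both, each in the same direction, 10 up and 6 down. That is 72.7% of the calls in Htt+/+ mice and 69.6% of those in HttQ111/+ mice, beside 64.1% and 69.0% over all genes tested in both. The main model holds surrogate variables, factors estimated from the counts without the labels of sex or date. In the fit with genes filtered over all 4 groups, the first had an r2 (share of its variance explained) of 0.83 with sex. The highest r2 of any was 0.38 with extraction date and 0.35 with the groups. When extraction date replaced the surrogate variables, 6 members passed in Htt+/+ mice, where 4.8% of all genes did, and 2 in HttQ111/+ mice, where 1.93% did. Sema3c, named after its values were seen, was among the 6 at 0.78 (adjusted p = 0.046), but was at 0.03 and did not pass in the main model. On 27 May its KO library was at 32.1 CPM against WT libraries at 11.4 to 15.9. The rest of the 6 were Epha10, Unc5a, Plxnd1, Sema4g and Plxna3 of the 22, and the 2 were Epha10 and Unc5a of the 23. The other 17 and 21 calls were lost, with a change in size of over 1.5 times for 7 of the 22 and 10 of the 23 members. In that fit Hdac2 KO met Hdac2 WT on the same date only through 2 KO libraries, 1 on 25 May and 1 on 27 May. Its values and the same-day values given below therefore rest on the same KO libraries and are not separate support. On 27 May, 1 Htt+/+ Hdac2 KO and 3 Htt+/+ Hdac2 WT libraries were extracted together. There 18 of the 22 members called in Htt+/+ mice had the direction of the fit, and in 15 the KO library lay beyond all 3 WT libraries. On 25 May, with 1 HttQ111/+ Hdac2 KO and 2 HttQ111/+ Hdac2 WT libraries, the direction was that of the fit in 16 of 23, and the KO library lay beyond both WT libraries in 10. The libraries of both days were in the fits that made the calls, so part of this agreement is built in. It was not counted over all called genes, so it shows nothing particular to the members. The 2 WT libraries of 25 May included replicate 7, the library highest in cortical markers. The KO library of that day was among the 2 libraries highest in choroid plexus markers. On neither day did the KO library share an ID series (the letter that starts an animal's ID) with the WT libraries beside it. Date is thus matched there, but ID series is not.

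**Figure D2:**
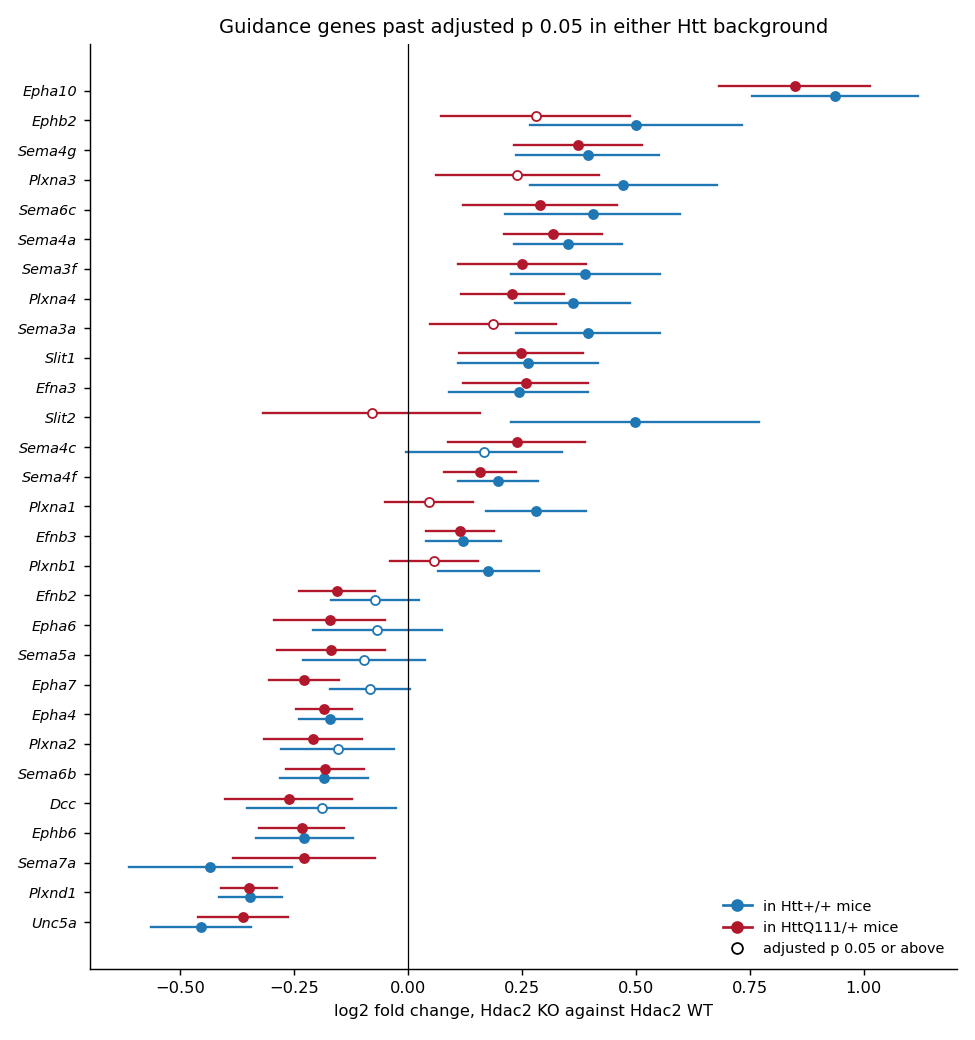
Log2 fold change of Hdac2 KO against Hdac2 WT in Htt+/+ mice (blue) and HttQ111/+ mice (red) for the 29 members past an adjusted p of 0.05 in either, with 95% confidence intervals from the fit. Filled points passed and open points did not. Epha10 stands alone at the top with 0.94 and 0.85, and Slit2 is the member whose 2 values lie on opposite sides of 0.

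Epha10, an Eph receptor predicted to lack kinase activity, showed the largest change. Its lowest, median and highest libraries were 13.2, 15.7 and 21.7 CPM in Htt+/+ Hdac2 WT and 27.5, 33.4 and 37.8 CPM in Htt+/+ Hdac2 KO. In HttQ111/+ mice they were 12.9, 14.4 and 18.6 CPM with Hdac2 WT and 22.6, 28.6 and 36.03 CPM with Hdac2 KO. Every Hdac2 KO library was above every Hdac2 WT library in both Htt backgrounds. The fitted rise was 1.92-fold in Htt+/+ mice (log2 0.94 ± 0.09 SE, adjusted p = 4.6e-09) and 1.80-fold in HttQ111/+ mice (0.85 ± 0.08, adjusted p = 7.7e-09). It also passed with extraction date in the model, at 0.86 (adjusted p = 0.00072) and 0.84 (adjusted p = 0.0044). Among libraries extracted on 27 May the KO library was at 35.9 CPM and the 3 WT libraries at 15.1 to 19.9, and on 25 May the values were 22.6 against 14.4 and 17.2. Epha10 (ENSMUSG00000028876, chr4:124880899-124917800) overlaps 1700125G02Rik on the opposite strand, and that gene had at most 0.0894 CPM in any library.

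Ranges that did not overlap between Hdac2 WT and Hdac2 KO were found for 8 of 70 members in Htt+/+ mice, 5 higher and 3 lower in KO, where the background over all genes is 4.7%. In HttQ111/+ mice there were 4 of 71, 2 higher and 2 lower, against 1.43%. Epha10, Sema4g and Unc5a were in both sets.

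Semaphorins supplied 6 of the rises in each background. Sema4g, a transmembrane semaphorin, had 12.4, 14.7 and 16.7 CPM (lowest, median and highest) in Htt+/+ Hdac2 WT and 17.6, 20.1 and 21.9 in Htt+/+ Hdac2 KO. In HttQ111/+ mice it had 13.1, 15.3 and 17.3 CPM with Hdac2 WT and 18.0, 20.8 and 24.2 with Hdac2 KO. The KO libraries lay above all WT libraries in both, with log2 fold changes of 0.39 ± 0.08 (adjusted p = 0.00041) and 0.37 ± 0.07 (adjusted p = 0.00023). On 27 May the KO library was at 20.9 CPM against 12.4 to 16.7, and on 25 May at 18.1 against 15.0 and 17.3. Sema4a, known in immune cells and retina, rose by similar amounts (0.35 ± 0.06, adjusted p = 5.0e-05, and 0.32 ± 0.05, adjusted p = 5.5e-05). Its ranges were 23.6 to 28.8 against 30.9 to 42.7 CPM in Htt+/+ mice, and in HttQ111/+ mice they overlapped at 24.2 to 38.7 against 29.7 to 39.5, the 38.7 being the library highest in cortical markers. On 25 May its KO library was at 32.0 CPM between WT libraries at 29.5 and 38.7.

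Sema6c and Sema3f also rose in both backgrounds. Sema6c, a transmembrane semaphorin that binds class A plexins, changed by 0.41 ± 0.09 (adjusted p = 0.0023) and 0.29 ± 0.08 (adjusted p = 0.015), and Sema3f, a secreted repellent that binds neuropilin-2, by 0.39 ± 0.08 (adjusted p = 0.00069) and 0.25 ± 0.07 (adjusted p = 0.011). With extraction date in the model the HttQ111/+ value of Sema6c was 0.03 (adjusted p = 0.96). Sema4f was past the threshold in both as well (0.20 ± 0.04 and 0.16 ± 0.04), and Sema4c only among HttQ111/+ mice (0.24 ± 0.07, with 0.17 ± 0.08 in Htt+/+ mice), a pair named after their values were seen.

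Sema7a and Sema6b were semaphorins that fell in both. Sema7a went from a median of 141 CPM (107 to 186) to 113 (99.03 to 130) in Htt+/+ mice and from 116 (92.0 to 183) to 104 (89.4 to 117) in HttQ111/+ mice, so that the ranges overlapped in each. Its log2 fold changes were -0.43 ± 0.09 (adjusted p = 0.00056) and -0.23 ± 0.08 (adjusted p = 0.037), and the second was -0.23 with adjusted p = 0.057 without the 3 libraries highest in cortical markers. Sema6b fell by 0.18 on the log2 scale in each (adjusted p = 0.0052 and 0.0022). Sema5a, a semaphorin with thrombospondin repeats, was past the threshold among HttQ111/+ mice (-0.17 ± 0.06, adjusted p = 0.041), and without those 3 libraries its value was -0.17 with adjusted p = 0.088.

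Plxnd1, the receptor of Sema3e, was the plexin that fell in both backgrounds. Its lowest, median and highest libraries were 131, 157 and 167 CPM in Htt+/+ Hdac2 WT, 118, 127 and 135.3 in Htt+/+ Hdac2 KO, 134.9, 147 and 166 in HttQ111/+ Hdac2 WT and 101, 128 and 142 in HttQ111/+ Hdac2 KO. The groups overlapped in each background, between 131 and 135.3 CPM in Htt+/+ mice and between 134.9 and 142 CPM in HttQ111/+ mice. It fell by 0.35 ± 0.03 on the log2 scale in both backgrounds (adjusted p = 8.3e-09 and 1.4e-09). With extraction date in the model the values were -0.38 (adjusted p = 0.018) and -0.31 (adjusted p = 0.11), and the KO library lay below the WT libraries on both shared days, at 130 against 156 to 167 CPM and at 108 against 134.9 and 151. Plxna4, a class A plexin that works with neuropilins, rose in both backgrounds (0.36 ± 0.06, adjusted p = 7.4e-05, and 0.23 ± 0.06, adjusted p = 0.0039), although the second value was 0.07 with no surrogate variables (adjusted p = 0.61) and 0.12 with extraction date in the model (adjusted p = 0.72). Plxna3 rose in Htt+/+ mice, from 8.20 to 13.0 CPM in Hdac2 WT to 12.2 to 16.8 CPM in Hdac2 KO (0.47 ± 0.10, adjusted p = 0.00099), and its value in HttQ111/+ mice was 0.24 ± 0.09 (adjusted p = 0.0595). Plxna1 (0.28 ± 0.05) and Plxnb1 (0.18 ± 0.05) were past the threshold in Htt+/+ mice too, with 0.05 ± 0.05 and 0.06 ± 0.05 in HttQ111/+ mice, and were named after their values were seen. Plxna1 was highest of all libraries in HttQ111/+ Hdac2 WT replicate 7, the library highest in cortical markers (46.2 CPM, rest of its group 25.0 to 29.8). Next came Htt+/+ Hdac2 KO replicate 6 at 43.1 CPM, also raised in cortical markers. Plxna2 was lower in HttQ111/+ Hdac2 KO (-0.21 ± 0.05, adjusted p = 0.0053), with -0.16 and adjusted p = 0.059 without the 3 libraries highest in cortical markers. On 25 May, however, its KO library was at 119 CPM, above the WT libraries at 106 and 112. With extraction date in the model the value was -0.12 (adjusted p = 0.86).

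**Figure D3:**
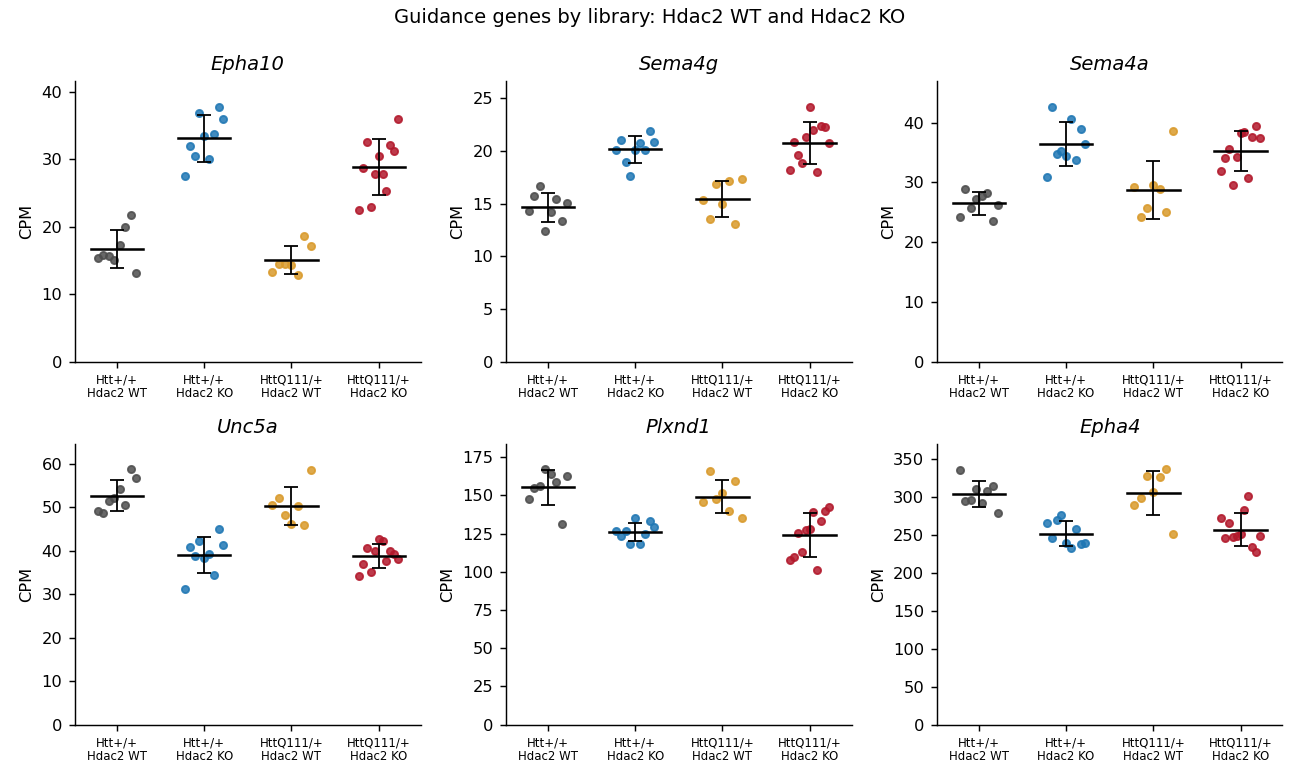
CPM of 6 members in every library by group (points), with the group mean (bar) and SD (whiskers) and each axis starting at 0. Epha10, Sema4g and Sema4a were higher and Unc5a, Plxnd1 and Epha4 lower in Hdac2 KO, and for Epha10, Sema4g and Unc5a no Hdac2 KO library crossed into the Hdac2 WT range of its Htt background.

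Unc5a, a netrin receptor of the repulsive UNC5 family, had 48.8, 51.7 and 58.8 CPM (lowest, median and highest) in Htt+/+ Hdac2 WT and 31.3, 39.2 and 45.1 in Htt+/+ Hdac2 KO. In HttQ111/+ mice it had 45.9, 50.3 and 58.6 CPM with Hdac2 WT and 34.1, 39.3 and 42.7 with Hdac2 KO. All Hdac2 KO libraries lay below all Hdac2 WT libraries within each background. The log2 fold changes were -0.45 ± 0.05 (adjusted p = 2.8e-07) and -0.36 ± 0.05 (adjusted p = 2.4e-06), and with extraction date in the model -0.50 (adjusted p = 0.0026) and -0.45 (adjusted p = 0.020). The KO library was also the lowest on both shared days, at 41.4 CPM against 50.6 to 52.1 and at 34.1 against 46.1 and 58.6. Dcc, the attractive netrin receptor, fell in HttQ111/+ mice (-0.26 ± 0.07, adjusted p = 0.0072). In Htt+/+ mice its ranges were apart, 29.9 to 39.4 CPM against 23.8 to 29.8, but the fitted value was -0.19 ± 0.08 (adjusted p = 0.105). On 25 May its KO library was at 35.4 CPM against 25.7 and 37.6. The ligand Ntn1 (-0.03 ± 0.09 and -0.01 ± 0.08) and Unc5c (-0.10 ± 0.10 and 0.06 ± 0.09) were not past the threshold.

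Apart from Epha10 and Ephb2, the Eph receptors that passed the test fell. Epha4 had medians of 301 CPM (279 to 335) in Htt+/+ Hdac2 WT, 246 (233 to 277) in Htt+/+ Hdac2 KO, 307 (251 to 336) in HttQ111/+ Hdac2 WT and 248 (228 to 300) in HttQ111/+ Hdac2 KO. The ranges were apart in Htt+/+ mice and overlapped in HttQ111/+ mice. The fitted changes were -0.17 ± 0.03 (adjusted p = 0.00049) and -0.18 ± 0.03 (adjusted p = 4.0e-05). Ephb6 fell by 0.23 ± 0.05 in both backgrounds (adjusted p = 0.0020 and 0.00049), although on 27 May its KO library, at 82.2 CPM, lay within the WT libraries at 74.3 to 84.1. Epha7, a receptor for ephrin-A ligands, fell in HttQ111/+ mice from 85.1 to 106 CPM to 67.6 to 84.9 CPM, ranges that did not overlap (-0.23 ± 0.04, adjusted p = 5.6e-05), and its value in Htt+/+ mice was -0.08 ± 0.04 (adjusted p = 0.19). Epha6 was lower in HttQ111/+ Hdac2 KO (-0.17 ± 0.06, adjusted p = 0.046), and without the 3 libraries highest in cortical markers its adjusted p was 0.15. On 25 May its KO library was at 32.4 CPM, above the WT libraries at 18.7 and 30.4. With extraction date in the model the value was -0.05 (adjusted p = 0.94). Ephb2, a kinase-active receptor for ephrin-B ligands, rose in Htt+/+ mice from a median of 4.37 CPM (3.38 to 5.91) to 6.17 (5.41 to 9.497), with 0.50 ± 0.11 (adjusted p = 0.0020) and 0.28 ± 0.10 in HttQ111/+ mice (adjusted p = 0.057). Its 2 highest Htt+/+ Hdac2 KO libraries were replicates 6 and 2, which were high in cortical markers, and without the 3 libraries the rise was 0.47 (adjusted p = 0.015).

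Of the ephrins, Efna3, a membrane-anchored ligand of EphA receptors, rose by 0.24 ± 0.07 (adjusted p = 0.021) and 0.26 ± 0.07 (adjusted p = 0.0069). On 25 May its KO library was at 43.2 CPM and so were both WT libraries (43.2 and 43.3). With extraction date in the model the values were 0.03 (adjusted p = 0.93) and 0.01 (adjusted p = 0.98), and the first was 0.22 with adjusted p = 0.11 without the 3 libraries highest in cortical markers. Efnb3 rose by 0.12 ± 0.04 and 0.11 ± 0.04 (adjusted p = 0.035 and 0.029), and without those libraries the values were 0.07 (adjusted p = 0.31) and 0.09 (adjusted p = 0.12). On 27 May its KO library, at 201 CPM, lay below the 3 WT libraries at 208 to 222, and with extraction date in the model the values were 0.06 and 0.04 (adjusted p = 0.69 and 0.85). Efnb2, a transmembrane ligand of EphB and Epha4 receptors, fell in HttQ111/+ mice (-0.16 ± 0.04, adjusted p = 0.0074). Ephb1, another partner of Efnb3, was at 86.3 to 113 CPM over all libraries (-0.05 ± 0.05 and -0.07 ± 0.05, not past the threshold). Efna5 (ENSMUSG00000048915), a ligand of Epha4 and Epha7, gave 0.03 ± 0.08 and 0.05 ± 0.07, and a second Efna5 entry nested within it shares its reads.

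The Slits differed from each other. Slit1 rose in both backgrounds (0.26 ± 0.08, adjusted p = 0.013, and 0.25 ± 0.07, adjusted p = 0.0090). Slit2 had 3.94, 6.28 and 9.53 CPM (lowest, median and highest) in Htt+/+ Hdac2 WT, 4.65, 7.69 and 10.9 in Htt+/+ Hdac2 KO, 6.92, 11.3 and 12.4 in HttQ111/+ Hdac2 WT and 5.00, 7.97 and 10.8 in HttQ111/+ Hdac2 KO. The highest median was thus in HttQ111/+ Hdac2 WT, and all 4 ranges overlapped. Within that group Slit2 was at 6.92 to 8.02 CPM in the libraries of 24 May (110 or 111 CAG repeats). In those of 25 and 27 May (113 to 140 repeats) it was at 11.3 to 12.4 CPM. Date and repeat length cannot be told apart in this split of Slit2. In Htt+/+ mice its fitted change was 0.50 ± 0.13 (adjusted p = 0.0079), in HttQ111/+ mice -0.08 ± 0.12, and on 27 May the KO library at 4.65 CPM was below the WT libraries at 5.92 to 9.53. With extraction date in the model the Htt+/+ value was 0.18 (adjusted p = 0.78), and with no surrogate variables 0.27 (adjusted p = 0.27). Slit3 gave -0.08 ± 0.06 and -0.14 ± 0.06 (adjusted p = 0.44 and 0.080). Of their receptors, Robo1 (0.08 ± 0.05 and -0.01 ± 0.05) and Robo2 (-0.02 ± 0.04 and 0.04 ± 0.03) were not past the threshold.

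Some known partners are set side by side here. Plxnd1 fell while its ligand Sema3e gave -0.13 ± 0.06 in Htt+/+ mice (adjusted p = 0.14) and -0.03 ± 0.05 in HttQ111/+ mice (adjusted p = 0.73). Sema3a, a secreted repellent, rose in Htt+/+ mice (0.40 ± 0.08, adjusted p = 0.00042) together with Plxna4, and the co-receptor Nrp1 gave -0.08 ± 0.11 and 0.15 ± 0.09 and did not pass. On 27 May, however, the KO library had 35.9 CPM of Sema3a against 33.2 to 48.2, and with extraction date in the model the value was 0.17 (adjusted p = 0.63). The netrin-G genes, whose products bind NGL proteins at synapses, gave 0.22 ± 0.11 and 0.23 ± 0.10 for Ntng2 and 0.17 ± 0.15 and 0.22 ± 0.13 for Ntng1 (ENSMUSG00000059857), all short of the threshold.

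Co-receptors and effectors of the same pathways, 67 entries, are given for comparison. In Htt+/+ mice 12 rose and 4 fell (23.9%, beside 17.8% of all genes). In HttQ111/+ mice 7 rose and 8 fell (22.4%, beside 16.5% of all genes). The largest rise was that of Rnd1, a small GTPase that binds plexins (1.37 ± 0.13 and 0.96 ± 0.11, adjusted p = 4.6e-09 and 3.8e-07). Dpysl3, of the collapsin response mediator family, rose by 0.45 ± 0.08 and 0.46 ± 0.07, Dpysl4 of the same family by 0.32 ± 0.06 and 0.22 ± 0.06, and the actin regulator Vasp by 0.29 ± 0.06 and 0.26 ± 0.05. Lrrc4, which encodes a netrin-G partner, changed by -0.34 ± 0.05 and -0.30 ± 0.04. Flrt1, a ligand of UNC5 receptors, changed by -0.26 ± 0.05 and -0.25 ± 0.05 and Chn1, which acts below Epha4, by -0.26 ± 0.06 and -0.18 ± 0.05. All 7 were past the threshold in both backgrounds.

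The second question was whether the HttQ111 allele changed guidance genes. With Hdac2 WT, 0 of 71 members passed in edgeR's quasi-likelihood test, where 0.403% of all genes did. In that test 12 of the 71 had an unadjusted p under 0.05, a higher share than the 10.9% of all genes. DESeq2 called 1 member, Slit2, and 0.887% of all genes. With Hdac2 KO, 0 of 70 passed in edgeR's test, where 0.00584% of all genes did (DESeq2 called 0). Of the 70, 17 had an unadjusted p under 0.05 in edgeR's test, a higher share than the 7.52% of all genes. Of the 9 MSN markers, 5 fell with Hdac2 WT, 0 passed with Hdac2 KO and 7 fell on average. Their part in the values that follow was not tested.

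Averaged over the Hdac2 backgrounds, 3 members passed, against 1.27% of all genes. Ephb6 had medians of 81.6 CPM in Htt+/+ Hdac2 WT (72.4 to 94.7) and 90.7 in HttQ111/+ Hdac2 WT (82.1 to 109), and of 67.4 (55.0 to 82.2) and 68.7 (61.5 to 96.2) with Hdac2 KO. The ranges overlapped in both backgrounds, and the average change was 0.13 ± 0.03 (adjusted p = 0.042). Efnb3 had medians of 211 and 203 CPM with Hdac2 WT and of 223 and 224 with Hdac2 KO, and its average change was -0.10 ± 0.02 (adjusted p = 0.037). Robo3 had medians of 7.94 and 7.78 CPM with Hdac2 WT and of 10.0 and 11.7 with Hdac2 KO, with wide overlap. Its average change was 0.48 ± 0.13 (adjusted p = 0.049), and 0.19 (adjusted p = 0.72) with no surrogate variables. None of the 3 passed with no surrogate variables or with sex, extraction date, ID series (the letter that starts an animal's ID) or replicate number in their place. Ephb6 and Robo3 passed in 3 of 13 alternatives and Efnb3 in 6 of 13, among them the one without the 3 libraries highest in cortical markers (-0.10, adjusted p = 0.047), where Ephb6 and Robo3 did not pass (adjusted p = 0.17 and 0.18). Epha3, an ephrin-A receptor named after its values were seen, had an average change of 0.24 ± 0.07 (adjusted p = 0.12) and passed in those 5 other models, with 0.32 to 0.33 (adjusted p = 0.0091 to 0.044). It did not pass without the 3 libraries highest in cortical markers. Among the 67 co-receptors and effectors Limk2, a kinase that acts on cofilin, passed with Hdac2 WT (0.13 ± 0.03, adjusted p = 0.044) and on average (0.09 ± 0.02, adjusted p = 0.011).

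Slit2 had the lowest p with Hdac2 WT (0.45 ± 0.12, unadjusted p = 0.0011, adjusted p = 0.11), and with extraction date in the model it was at 0.68 (adjusted p = 0.023). Epha3 had 3.28 to 4.58 CPM in Htt+/+ Hdac2 WT and 4.35 to 6.45 CPM in HttQ111/+ Hdac2 WT, with 0.28 ± 0.11 (adjusted p = 0.34) in the main model and 0.41 (adjusted p = 0.035) with extraction date in it. Sema6c (0.40, adjusted p = 0.043) and Epha1 (1.15, adjusted p = 0.049) passed in the model with extraction date as well. Epha1, named after its values were seen, had at most 0.641 CPM in any library and overlaps Zyx on the opposite strand, so its reads are uncertain. Within Hdac2 WT mice the 3 extraction dates held libraries of both Htt genotypes.

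**Figure D4:**
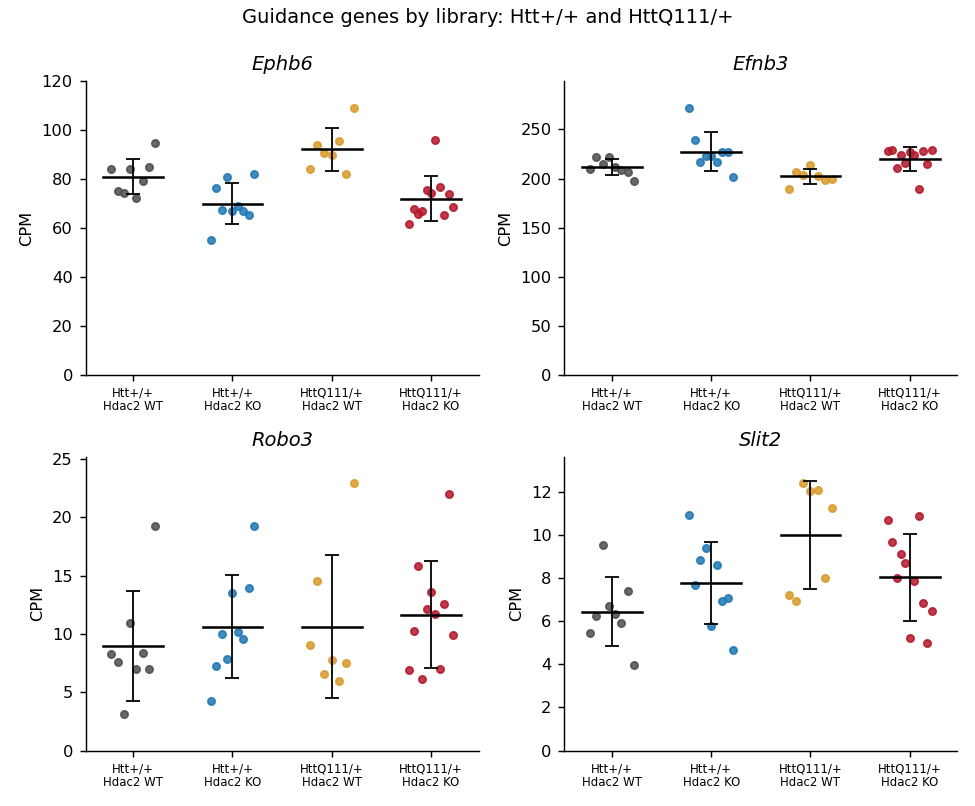
CPM of Ephb6, Efnb3, Robo3 and Slit2 in every library by group (points), with the group mean (bar) and SD (whiskers) and each axis starting at 0. The ranges of Htt+/+ and HttQ111/+ mice overlap in each panel, and HttQ111/+ Hdac2 WT has the highest Slit2 median at 11.3 CPM.

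The third question was whether the effect of HttQ111 differed between Hdac2 WT and Hdac2 KO mice, which in this design is the same test as whether the effect of Hdac2 KO differed between the Htt genotypes. No member of 71 passed in edgeR's test, where 0.00577% of all genes did, and DESeq2 called 0. In edgeR's test 6 of the 71 had an unadjusted p under 0.05, beside 5.63% of all genes. The lowest unadjusted p-values belonged to Slit2 (-0.59 ± 0.15, p = 0.00065) and Plxna1 (-0.24 ± 0.06, p = 0.00070), both at adjusted p = 0.55 in the fit across all genes. Plxna1 was highest in HttQ111/+ Hdac2 WT replicate 7 and next highest in Htt+/+ Hdac2 KO replicate 6, which were both raised in cortical markers. The 95% confidence intervals bound what a difference could be: -0.28 to 0.15 for Epha10, -0.08 to 0.08 for Plxnd1, -0.20 to 0.17 for Sema4g and -0.03 to 0.23 for Unc5a. For Epha7, whose Hdac2 effect passed only in HttQ111/+ mice, the interval was -0.25 to -0.04 (adjusted p = 0.69), and the calls made in 1 background alone are therefore not shown to be particular to it.

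The library highest in cortical markers, HttQ111/+ Hdac2 WT replicate 7, was the highest of all 35 for 14 members and the lowest for 2. Such extremes were not counted over all genes, so these numbers show nothing particular to the members. Ntng2 was at 23.1 CPM there and at 4.35 to 7.92 in the rest of its group, Sema5a at 41.0 against 20.0 to 24.5, and Ephb2 at 9.84 against 4.04 to 6.37. Ntng2 was also at 12.4 and 10.9 CPM in the 2 Htt+/+ Hdac2 KO libraries with raised cortical markers, the next highest values of all libraries. Without the 3 libraries, 20 members passed for Hdac2 KO in Htt+/+ mice (14 up, 6 down) and 17 in HttQ111/+ mice (9 up, 8 down), where 13.2% and 12.7% of all genes did. Without the 2 libraries highest in choroid plexus markers the counts were 26 and 28, where 19.9% and 18.3% of all genes passed.

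**Figure D5:**
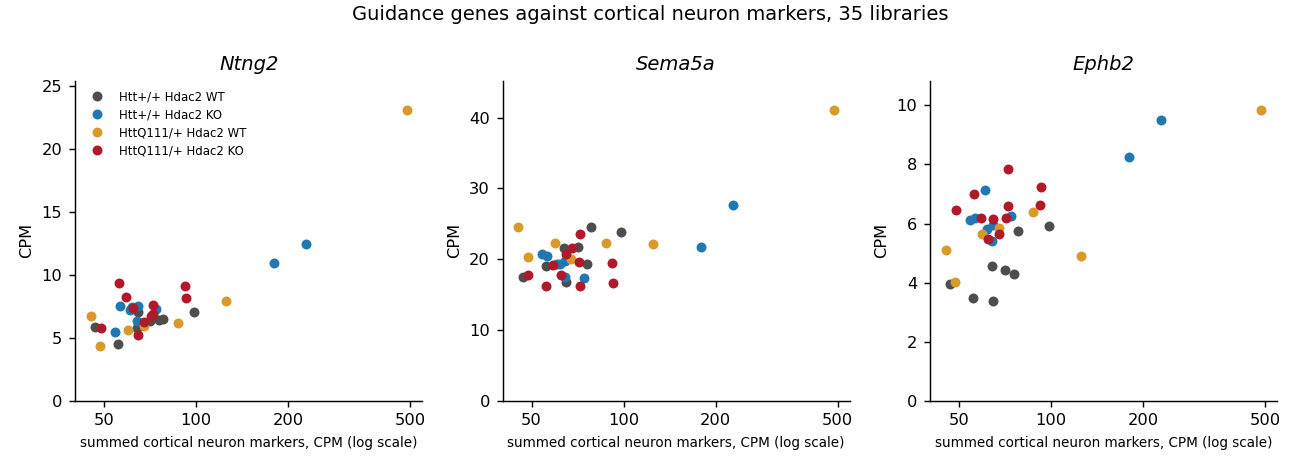
CPM of Ntng2, Sema5a and Ephb2 (vertical axes from 0) against the summed CPM of the cortical projection neuron markers (log axis) in 35 libraries, coloured by group. The point at the right, at 487 CPM of markers, is HttQ111/+ Hdac2 WT replicate 7, which has the highest value of each of the 3 genes.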

How the data were processed

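Striatal RNA from 35 mice was sequenced by the study as poly(A)-selected, stranded libraries with ERCC spike-ins. The deposited values are raw counts per gene: per the labels and the study's methods, the authors used GSNAP for alignment to GRCm38, and bedtools then tallied uniquely placed reads over each whole Ensembl gene interval, introns included. Whether strand was used is not stated in the sources used here, so reads of a gene and of one overlapping it on the other strand cannot be told apart. The processing notes also name edgeR.

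Genes spanning 250 nt or less (6152), 92 ERCC entries and 2 mitochondrial rRNAs were left out, and 32863 genes were kept. Samples were grouped by genotype from the labels. A gene was tested if no library of at least 1 of the compared groups had fewer than 6 counts. The test was that of edgeR 4.0.16 (quasi-likelihood, TMM, 9 surrogate variables from sva 3.50.0, R 4.3.3), with Benjamini-Hochberg adjustment over all genes tested and a threshold of 0.05. Each comparison had its own fit to all 35 libraries, with its own filtered genes and surrogate variables. Fold changes are given ± SE, and CPM are TMM-scaled. Comparisons were Hdac2 KO against Hdac2 WT in each Htt genotype, HttQ111/+ against Htt+/+ in each Hdac2 genotype, their average and their difference. Those with a group in common share its libraries. The script was tested on simulated data.

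The members, lists, tests and alternatives were chosen with earlier results of these data known. Named members are those past the threshold for Hdac2 KO (up to 12 rises and 12 falls by mean change), all past it for HttQ111 or the difference, the 5 highest per kb, and ligand and receptor partners listed in advance. Co-receptors and effectors (67 entries for 65 symbols, up to 4 rises and 4 falls named, 1 of which is not reported here) and cell type markers were lists as well. Exon lengths came from GENCODE on GRCm38 and promoters from RefSeq (GRCm38.p6). Coordinates are 1-based. The sequences of proteins were not used here. The alternatives were other covariates (none, sex, extraction date, ID series, replicate number), only the groups compared, males only, DESeq2 1.42.0 and its size factors, a newer form of the quasi-likelihood method, no count filter and short genes kept.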

Additional observations from a re-analysis of the deposited data

Results flagged for a closer look

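A library that stood far from the rest of its group, by Dixon's test at the 95% level, was looked for among the 38 named entries in the 3 groups of 7, 8 and 9 mice, which gave 114 tests and 12 such values. Chance alone gives about 1 in 20. HttQ111/+ Hdac2 WT replicate 7, the library highest in cortical markers, held 6 of them, all high: Sema5a (41.0 CPM, next 24.5), Ephb2 (9.84, next 6.37), Sema4a (38.7, next 29.5), Ntng2 (23.1, next 7.92) and both overlapping Efna5 entries (18.5, next 14.7, for ENSMUSG00000048915, and 13.1, next 10.5, for ENSMUSG00000090425). Htt+/+ Hdac2 KO replicate 6, also raised in cortical markers, was high in Sema5a (27.6 CPM, next 21.7).

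Htt+/+ Hdac2 WT replicate 9 was low in Plxna4 (39.0 CPM, next 48.3) and in both Efna5 entries (9.80, next 11.8, and 6.72, next 8.37). Htt+/+ Hdac2 WT replicate 4 was high in Slit1 (20.2 CPM, next 16.2) and replicate 8 of that group in Sema3e (98.0 CPM, next 75.02). No member's HttQ111 effect differed between the Hdac2 genotypes past the threshold.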

How the results depend on the processing

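For Hdac2 KO in Htt+/+ mice the count of 22 became 6 when extraction date replaced the surrogate variables, where 4.8% of all genes passed. It became 40 with only the groups compared, where 29.7% passed. For Hdac2 KO in HttQ111/+ mice the 23 became 2 with extraction date, 15 with no surrogate variables and 12 with the replicate number as a block. Of all genes, 1.93%, 13.5% and 10.8% passed in those fits. For HttQ111 with Hdac2 WT the 0 became 4 with extraction date, 7 with ID series and 1 with DESeq2. There 2.45%, 4.89% and 0.887% of all genes passed. For the average HttQ111 effect the 3 became 1 with no surrogate variables, with sex and with the replicate block. Of all genes, 1.41%, 1.38% and 2.1% passed there. The count was also 1 with short genes kept (1.19% of all genes) and without the cortical-high (0.522%) or the choroid-high libraries (1.07%). It was 0 with males only (0.674%) and with no count filter (0.548%). The member called with no surrogate variables, with sex and with the replicate block was Epha3, so none of the 3 remained. With extraction date the count was again 3, but of Epha3, Sema6c and Epha1, and with ID series it was 4, of Epha3, Sema6c, Epha1 and Efna5 (ENSMUSG00000048915). Of all genes, 2.32% and 3.63% passed with extraction date and with ID series. The cause of these shifts was not tested. All other counts stayed within 1.5 times of the main count. Over the named entries, 2929 values kept their side of the threshold, 137 were no longer past it, 50 newly passed and none called reversed. Of the named calls, 5 of 19 in Htt+/+ mice and 2 of 21 in HttQ111/+ mice passed under all 14 alternatives. The main model did not pair samples by replicate number. Deviations of same-numbered libraries had a median correlation of 0.0386, with 15 of 45 pairs over 0.1. Libraries of different number had a median of -0.0099, with 105 of 410 pairs over 0.1. Pairing by litter was not tested. Both leave-out settings were chosen after seeing the data. At 50970712 counts or more per library, members under 1 CPM still rest on few reads.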
